A study of Mus musculus with 30 samples.

Results

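The digestive enzyme genes of the exocrine pancreas were followed through a set of mouse liver arrays. Of 10 genes chosen by symbol (Amy2a5, Ctrl, Ctrb1, Cela1, Cela2a, Cela3b, Cpa1, Cpb1, Pnlip and Prss2), 9 were matched to 1 probe set each among the 22206 probe sets measured, and Pnlip was not analysed here. The genes were picked because their signals varied strongly among the arrays of the control group, so their level on control arrays, and each difference from that group, is a description and carries no test. Signals are given on the log2 scale of the deposited values, on which 1 unit is a 2-fold difference.

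Acinar cells of the exocrine pancreas make digestive enzymes, mostly as inactive precursors (zymogens), store them in granules and release them through the pancreatic duct into the gut, where trypsin activates the others. Transcription of these genes in acinar cells depends on a complex of Ptf1a, an E-protein partner and Rbpjl, which binds an E-box and a neighbouring TC-box in their promoters. Hepatocytes, the main cells of the liver, secrete plasma proteins and bile instead, and are not known as a source of these zymogens.

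Livers came from C57/BL6J offspring of 16 weeks, 1 array for each animal. LL offspring (9 arrays, 5 female and 4 male) were conceived with sperm and seminal plasma of males on a low protein diet. NL offspring (7 arrays, 3 female and 4 male) combined sperm of males on the normal protein diet with low protein diet seminal plasma, and LN offspring (7 arrays, 3 female and 4 male) combined sperm of low protein diet males with normal protein diet seminal plasma. NN offspring (7 arrays, 3 female and 4 male), the controls, had sperm and seminal plasma of males on the normal protein diet. All dams were superovulated, artificially inseminated and then housed with a vasectomised male, which supplied the seminal plasma. The numbers of arrays and of each sex are those of the labels and differ from the design given in the study's methods. The labels do not tie arrays to litters, and a male and a female of 1 group may be siblings, so p-values measure the spread between these arrays.

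Across the 29 arrays used for comparisons, the spike-in hybridisation controls averaged 10.14 to 10.95 and the array medians were 5.42 to 5.57. Albumin (Alb) was at 13.36 to 13.57 in LL, NL, LN and NN livers, and the mean of 10 hepatocyte genes was 12.62 to 12.79 on the arrays other than NN replicate 5, so each of these arrays carried liver RNA. NL replicate 6 stood apart, with hybridisation controls at 7.61 and 53% of all probe sets more than 1 log2 unit away from their median, and was kept out of every comparison. LL replicate 1, labelled female, lay between female and male arrays in Y-linked genes (Eif2s3y at 6.56, against at most 3.30 on the other female arrays and at least 7.76 on the male arrays other than NL replicate 6). NL replicate 6, labelled male, had Eif2s3y at 3.24, a level found on female arrays. The deposited table holds no detection calls, so whether a low signal lay above background was not measured. A distance from the median is therefore a difference between deposited signals, it may understate the change of a dim gene, and it gives no order among the genes.

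To show the sequence from which these genes are transcribed, the promoter (250 bases before to 50 after the start, RefSeq, build GRCm38.p6, on the gene's own strand) was searched in all 10 genes on both strands for the E-box CACCTG, the TC-box core TTCCCA and the TATA box TATAAA. No searched motif contains another. The E-box stood in 6 of 10 promoters (Cela1, Cela2a, Cela3b, Cpb1, Ctrl and Prss2), against 20.2% of 32851 mouse promoters of the same length. The TC-box core stood in 6 (Cela2a, Cpa1, Ctrb1, Ctrl, Pnlip and Prss2), against 25.6%, and both together in 3 (Cela2a, Ctrl and Prss2), against 5.27%. The TATA box stood in 5 (Amy2a5, Cela1, Cpb1, Pnlip and Prss2), against 13.6%. Each match is a description of letters in this window. Printed below, with matches in capitals, are the promoters of the 3 genes whose signal on 1 array was farthest above its median (Ctrb1 at chr8:111690961-111691260, Cpb1 at chr3:20275684-20275983 and Amy2a5 at chr3:113258650-113258949) and of the gene whose highest signal was nearest to it (Cela3b at chr4:137430471-137430770), all on the minus strand.
Ctrb1: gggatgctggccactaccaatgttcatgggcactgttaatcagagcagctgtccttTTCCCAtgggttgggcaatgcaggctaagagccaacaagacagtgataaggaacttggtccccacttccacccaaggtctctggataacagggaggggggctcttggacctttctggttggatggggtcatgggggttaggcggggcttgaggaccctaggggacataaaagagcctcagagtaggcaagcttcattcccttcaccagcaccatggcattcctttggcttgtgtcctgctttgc
Cpb1: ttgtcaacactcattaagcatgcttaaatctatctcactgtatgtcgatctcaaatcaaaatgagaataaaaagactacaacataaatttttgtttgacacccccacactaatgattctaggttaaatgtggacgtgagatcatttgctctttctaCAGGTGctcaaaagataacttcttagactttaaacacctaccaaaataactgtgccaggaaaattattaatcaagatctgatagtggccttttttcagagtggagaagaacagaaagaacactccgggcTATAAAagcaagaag
Amy2a5: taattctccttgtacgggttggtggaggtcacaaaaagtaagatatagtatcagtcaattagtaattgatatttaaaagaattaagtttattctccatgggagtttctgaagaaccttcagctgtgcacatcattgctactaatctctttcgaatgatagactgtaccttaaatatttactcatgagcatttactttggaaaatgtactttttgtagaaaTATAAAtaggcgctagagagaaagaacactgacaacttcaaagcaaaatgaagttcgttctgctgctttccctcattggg
Cela3b: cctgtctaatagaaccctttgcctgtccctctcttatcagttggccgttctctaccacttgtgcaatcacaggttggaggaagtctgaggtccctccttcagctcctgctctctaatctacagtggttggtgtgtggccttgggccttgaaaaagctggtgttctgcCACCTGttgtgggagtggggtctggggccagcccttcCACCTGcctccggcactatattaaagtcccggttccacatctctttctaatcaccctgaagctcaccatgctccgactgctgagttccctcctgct

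One array carried the set. On NN replicate 5, labelled male, 8 of 9 genes were more than 1 log2 unit above their median over the 29 arrays, against 0.302% of all probe sets on that array. All 9 had their highest signal of the 29 arrays there, as did 2.45% of all probe sets, and their median deviation was 4.22. On the other 28 arrays the median deviation of the genes lay between -0.15 and 0.23, and 27 of these arrays had no gene more than 1 unit above its median. The exception was LL replicate 2, with 1 gene (Ctrb1 at 6.13), against 0.684% of all probe sets on that array.

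Among the protease precursors, Ctrb1, chymotrypsinogen B, was at 11.15 on NN replicate 5, 6.63 log2 units above its median over the 29 arrays, and the other 6 NN arrays lay at 3.81, 4.19, 4.33, 4.51, 4.55 and 4.71. In LL livers it ranged from 4.01 to 6.13 (median 4.61), in NL livers from 4.34 to 4.75 (median 4.59) and in LN livers from 4.11 to 4.71 (median 4.39). The 3 diet groups therefore overlapped the 6 low NN arrays, and LL replicate 2 lay between them and NN replicate 5.

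Ctrl, a chymotrypsin-like protease, was at 10.05 on NN replicate 5, 4.95 units above its median, with the other NN arrays at 4.87 to 5.57. Its medians were 5.03 in LL, 5.22 in NL, 5.18 in LN and 5.14 in NN livers. Prss2, a trypsinogen, was at 8.64 on NN replicate 5 (3.69 units above) and at 4.80 to 5.27 on the other NN arrays. For both genes all LL, NL and LN arrays fell below NN replicate 5, with the highest at 5.45 for Ctrl and 5.31 for Prss2.

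The 3 elastase genes, whose products cut proteins after small or hydrophobic residues, lay 0.87 to 2.20 units above their medians on that array. Cela1 was at 7.62 on NN replicate 5 (2.20 units above its median) and at 4.94 to 5.56 on the other NN arrays, and Cela2a was at 6.97 (1.85 units above) and at 4.94 to 5.37. Cela3b was at 6.40 on NN replicate 5, 0.87 units above its median and so short of the limit of 1 log2 unit. NN replicate 6 had 6.08 for Cela3b, so this gene did not separate NN replicate 5 from the rest of its group as the others did. Around the limit, Cela2a was the nearest gene that passed it and Cela3b the gene that did not.

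The carboxypeptidases trim residues from the end of a protein chain, Cpa1 aromatic and aliphatic ones and Cpb1 basic ones. Cpb1 was at 9.06 on NN replicate 5, 5.67 units above its median, and at 2.97 to 4.01 on the other NN arrays. Cpa1 was at 9.64 (4.22 units above its median) and at 4.58 to 5.62. In the diet groups Cpb1 spanned 3.08 to 4.21 in LL, 3.04 to 4.09 in NL and 3.13 to 3.87 in LN livers, and Cpa1 spanned 5.01 to 5.96, 5.21 to 5.62 and 5.29 to 5.65 in the same order.

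Amy2a5, the pancreatic amylase that digests starch, was at 10.95 on NN replicate 5 (5.55 units above its median). The other NN arrays were at 4.94, 5.30, 5.42, 5.52, 5.59 and 5.94. Its range was 5.00 to 5.81 in LL, 4.39 to 5.57 in NL and 5.22 to 5.94 in LN livers, so the low NN arrays and the 3 diet groups overlapped. Amy2a5 lies on chromosome 3 between Amy2b and Amy2a4, close relatives in sequence, and Prss2 lies next to Prss1 on chromosome 6, so probe sets of these genes may share signal with their neighbours.

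**Figure D1:**
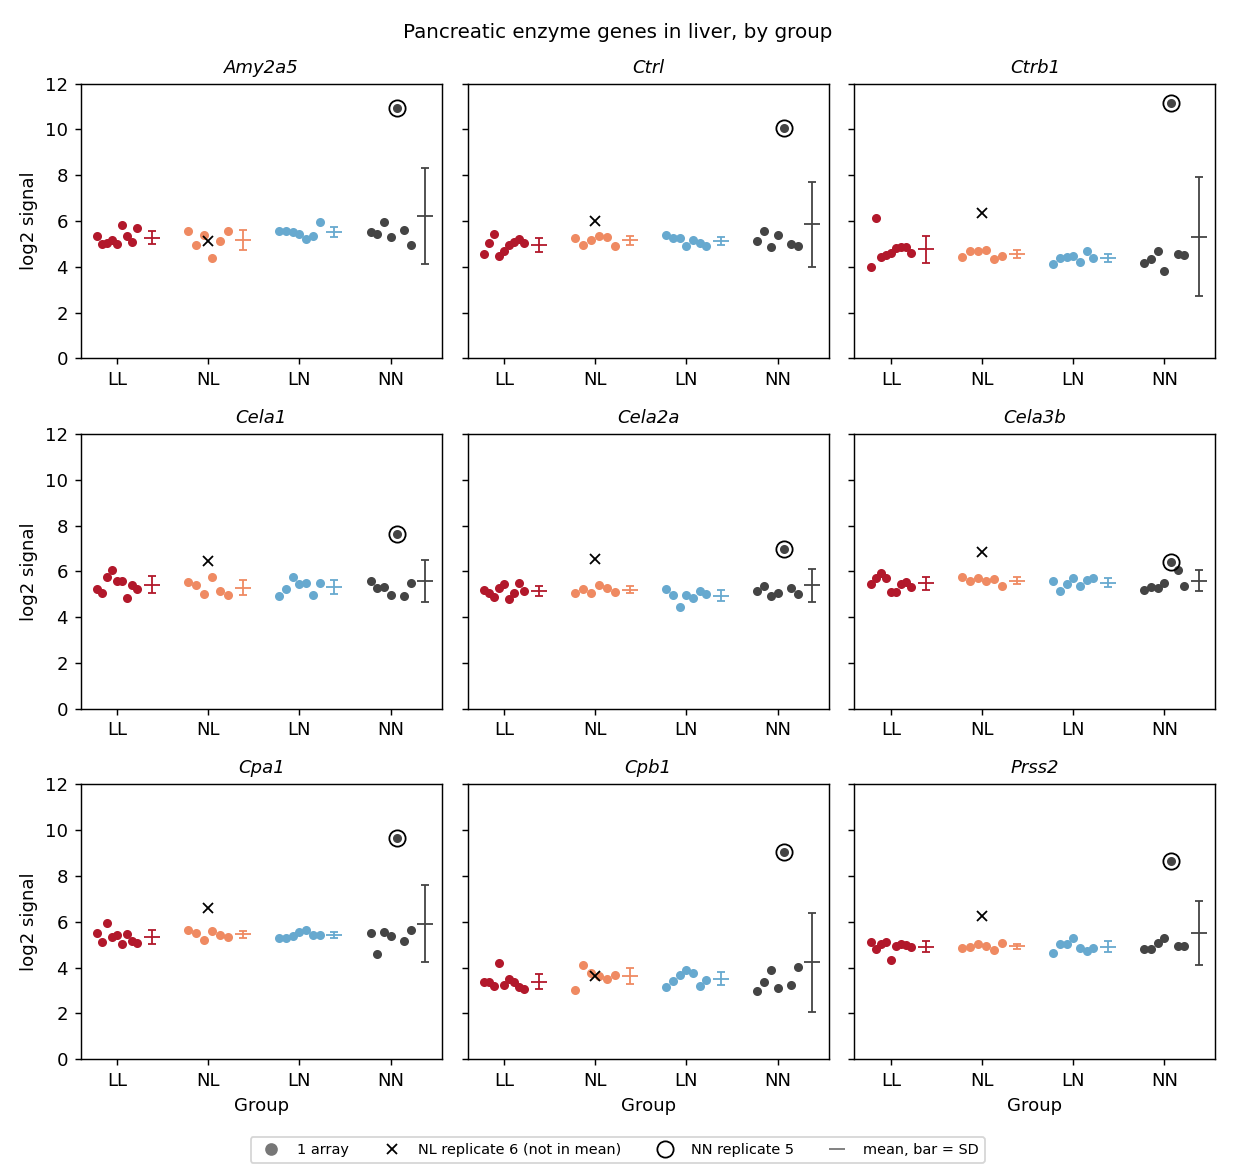
Each point is the log2 signal of 1 liver array (y axis) for 9 pancreatic enzyme genes by group (x axis), with the group mean and SD at its right, NN replicate 5 circled, and NL replicate 6 as a cross outside the mean. NN replicate 5 has the highest point of the 29 arrays in every panel, from 6.40 for Cela3b to 11.15 for Ctrb1, while the other NN arrays overlap LL, NL and LN.

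The correlation among the genes depended on that array. Over the 36 pairs of the 9 genes, the median Pearson correlation was 0.81 on the 29 arrays (0.43 to 0.95), -0.09 on the 28 arrays without NN replicate 5 and -0.06 on the 22 arrays outside NN. The median Spearman correlations were 0.06, -0.05 and -0.04. These arrays share their processing, and the values are a description.

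Genes outside the set that followed it most closely were also acinar secretory genes. The 15 named probe sets with the highest Pearson correlation with the mean of the 9 genes over 29 arrays (0.73 to 0.97) were Clps, 2210010C04Rik, Rnase1, Amy2a2, Amy2a4, Pnliprp1, Try5, Sycn, Try4, Klk1, Reg1, Amy2b, Zg16, Cel and Pnliprp2, of which 13 stood in the list of other acinar secretory genes. Their Spearman correlations were -0.01 to 0.54, and without NN replicate 5 their Pearson correlations were -0.16 to 0.43. Clps, colipase, the cofactor of pancreatic lipase, was at 9.63 on NN replicate 5, against 4.96 to 5.73 on the other 28 arrays. Rnase1, pancreatic ribonuclease, was at 8.03, against 2.71 to 3.89. Pnliprp1, a lipase-related protein, was at 8.54, against 4.68 to 5.60. Amy2a4 and Amy2a2, amylase copies, were at 11.51 and 11.06 on NN replicate 5, against at most 6.13 and 5.85 on the other 28.

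**Figure D2:**
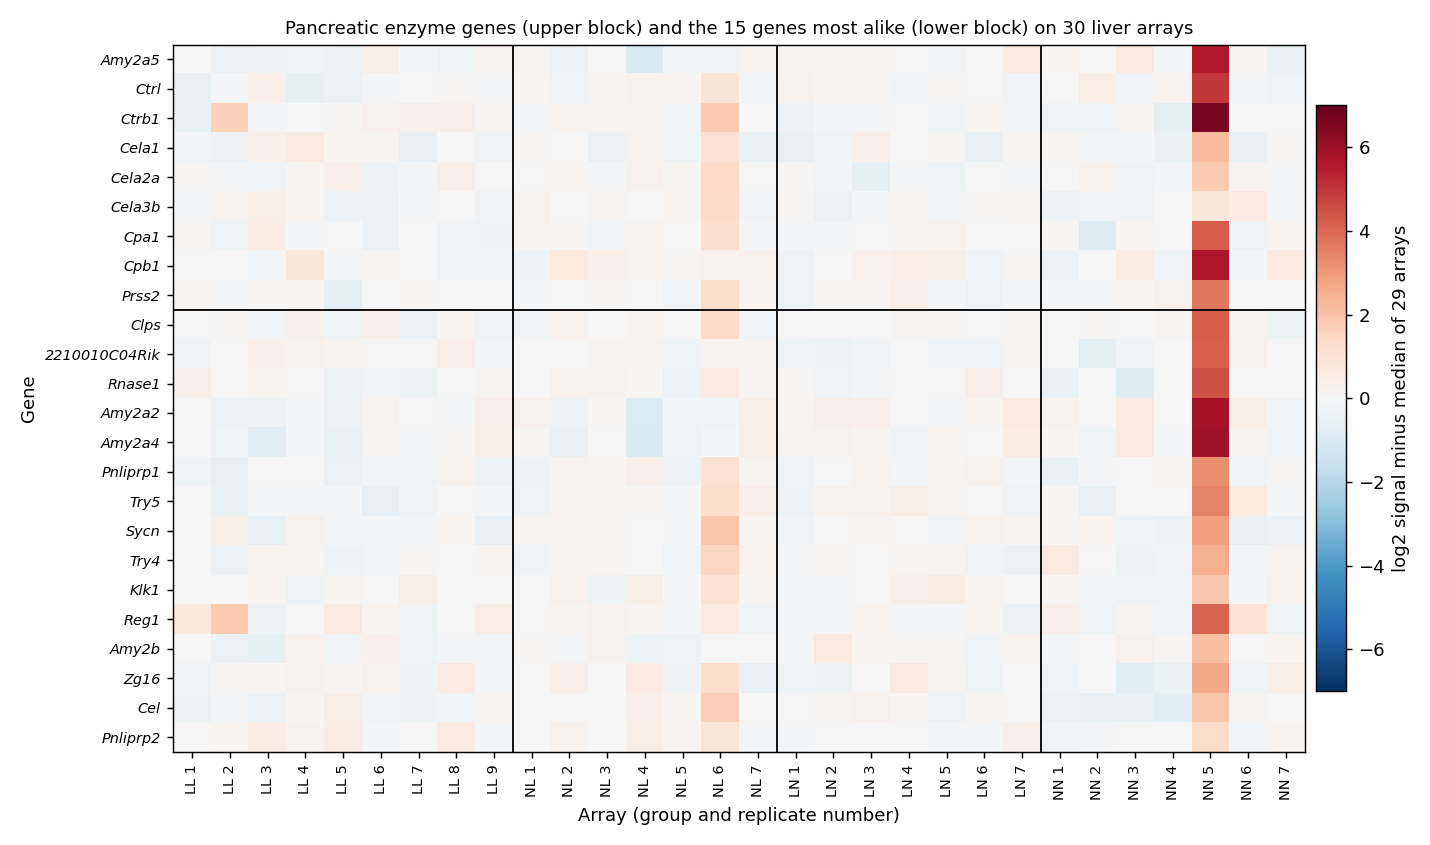
Rows are the 9 pancreatic enzyme genes (upper block) and the 15 genes most alike (lower block), columns are 30 arrays by group, and colour is the log2 signal minus the median of 29 arrays. The column of NN replicate 5 is raised from 0.87 (Cela3b) to 6.63 (Ctrb1) in the upper block, and NL replicate 6, outside the comparisons, spans -0.27 (Amy2a5) to 1.84 (Ctrb1) there.

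Of 31 other acinar secretory genes listed, 28 were measured. On NN replicate 5, 17 (60.7%) were more than 1 log2 unit above their median, against 0.302% of all probe sets, with a median deviation of 1.35. In this list 21 genes (75%) had their highest signal there, against 2.45% of all probe sets. Rnase1 was 4.48 units above its median, Clps 4.25, 2210010C04Rik 4.19 and Reg1, a secreted lectin, 4.10, and Spink1, the trypsin inhibitor, was at -0.60. Trypsins Try5 and Try4 were 3.45 and 2.57 units above their medians, and Sycn, a zymogen granule protein, 2.89. Not all genes of this list were therefore raised by more than 1 log2 unit on this array.

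The listed acinar genes that do not encode granule content lay from -0.45 to 0.91 log2 units from their medians on NN replicate 5. None of these 14 genes, labelled acinar regulators, was more than 1 unit above its median there, against 0.302% of all probe sets. Their median deviation was 0.00. The list joins transcription factors with membrane and endoplasmic reticulum proteins. Its mean signal was 6.08 on NN replicate 5 and 5.79 to 6.11 on the other NN arrays. A small addition may not show in those of its genes that liver itself expresses. Ptf1a was at 2.85 on NN replicate 5 and at 2.23 to 3.00 on the other NN arrays, against 2.72 to 3.77 on the 22 arrays outside NN. Cuzd1, a zymogen granule membrane protein, came closest at 0.91 units above its median, followed by Erp27, an endoplasmic reticulum protein, at 0.52. Both had their highest signal of the 29 arrays there (Cuzd1 4.33 against at most 3.78 elsewhere, Erp27 4.05 against at most 4.03). They made up 14.3% of the list, against 2.45% of all probe sets with their highest signal on NN replicate 5.

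Markers of neighbouring tissues were counted at the same limit of 1 log2 unit, which 0.302% of all probe sets passed on NN replicate 5. On NN replicate 5, 0 of 16 islet, 0 of 8 duct, 0 of 13 intestine, 0 of 9 stomach, 0 of 5 salivary, 0 of 7 adipose, 0 of 9 spleen and lymphocyte, 0 of 5 mesothelium, 0 of 8 muscle and 0 of 7 kidney genes were more than 1 unit above their medians, with list medians between -0.37 (adipose) and 0.09 (salivary). The counts of 0 lie near that share over all probe sets and are a description. Some markers were already high on the other 28 arrays, with medians of 12.52 for Car3 (adipose), 9.49 for Fabp2 (intestine) and 8.57 for Slc4a4 (duct). A small addition may not show in a gene at such a level. Others were low, such as Gcg (islet) at 4.25 and Sis (intestine) at 3.89. Ins2, insulin, was at 5.66 on NN replicate 5, and the NN livers ranged from 5.19 to 6.13. Amy1, the amylase of salivary gland and liver, was at 10.60 on NN replicate 5, against 9.44 to 10.68 on the other 28 arrays. The 10 hepatocyte genes averaged 12.65 there, against 12.62 to 12.79 on the others. Whether pancreatic tissue was present in the sample, or the liver cells themselves made these transcripts, was not tested, and in a bulk sample the number of cells and the RNA of each cell cannot be told apart.

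**Figure D3:**
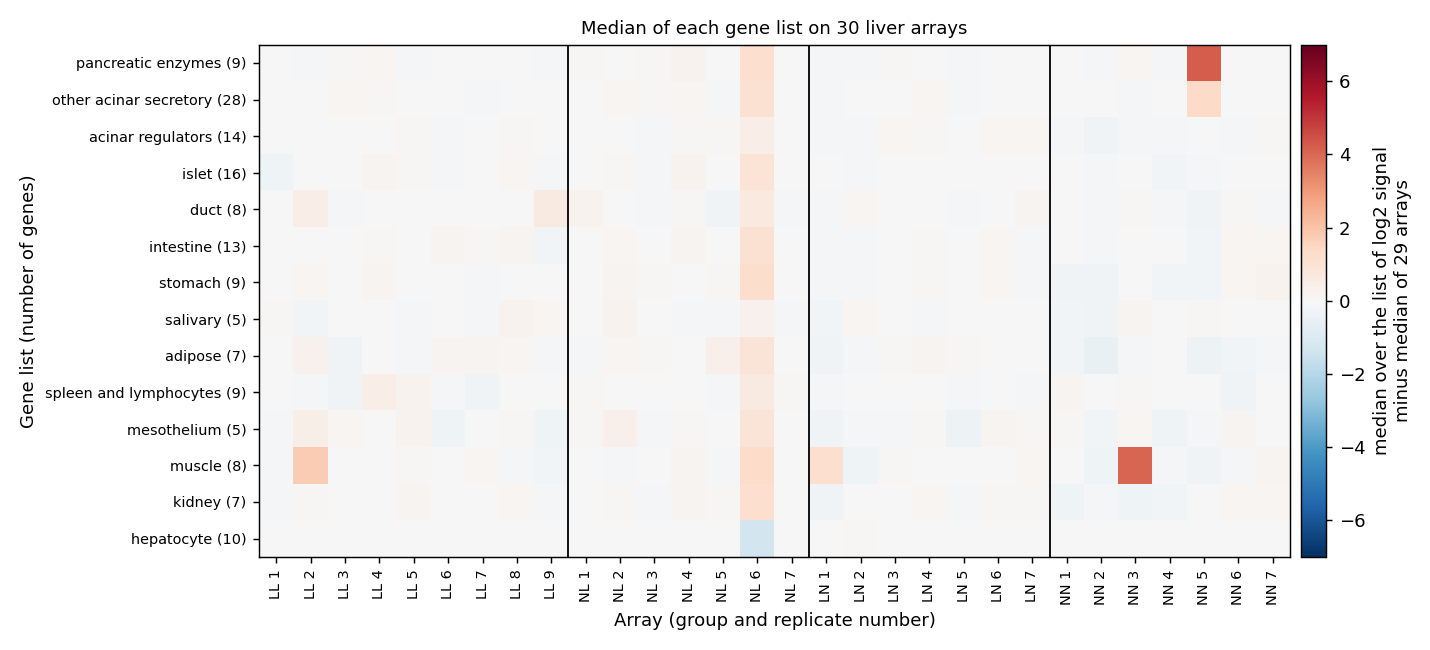
Rows are 14 gene lists with their number of measured genes, columns are 30 arrays by group, and colour is the list's median of log2 signal minus the median of 29 arrays. On NN replicate 5 the pancreatic enzymes (4.22) and the other acinar secretory genes (1.35) are raised, while the islet, duct and hepatocyte rows lie near 0.

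Few named probe sets outside the acinar genes were more than 2 log2 units above their median on NN replicate 5. At the limit of 1 unit there were 67 probe sets, among them 8 of the enzyme genes and 17 of the other acinar secretory genes. Of 22206 probe sets, 25 were more than 2 log2 units above their median there, and 20 of them had a gene name. These 20 were 7 of the 9 enzyme genes, 11 of the other listed genes, and Amy2a4 and Amy2a2. The other 28 arrays had 0 to 85 such probe sets each.

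Set against NN livers, the log2 difference was below 0 for 9 of 9 genes in LL, 8 of 9 in NL and 9 of 9 in LN livers, and these values rested on NN replicate 5. In LL minus NN the log2 differences ran from -0.96 (Amy2a5, SE 0.48) to -0.13 (Cela3b, SE 0.15) with a median of -0.58, against 0.01 over all probe sets. In NL minus NN they ran from -1.07 (Amy2a5, SE 0.54) to 0.01 (Cela3b, SE 0.16) with a median of -0.57, and in LN minus NN from -0.94 (Ctrb1, SE 0.63) to -0.09 (Cela3b, SE 0.15) with a median of -0.58. With NN replicate 5 left out the medians were 0.01, 0.07 and 0.05, and the ranges -0.20 to 0.41, -0.28 to 0.22 and -0.18 to 0.14, in the same order. The comparisons share the NN arrays. With adjusted p under 0.05 in limma (Benjamini-Hochberg), 0 of the 9 genes were called in any of the 3, against 0% of all probe sets in LL minus NN, 0.054% in NL minus NN and 0.0405% in LN minus NN. These counts are a description, since NN arrays chose the genes, and at an unadjusted p under 0.05 they were 1, 0 and 1 genes, all lower, against 8.43%, 14.1% and 11.6% of all probe sets.

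**Figure D4:**
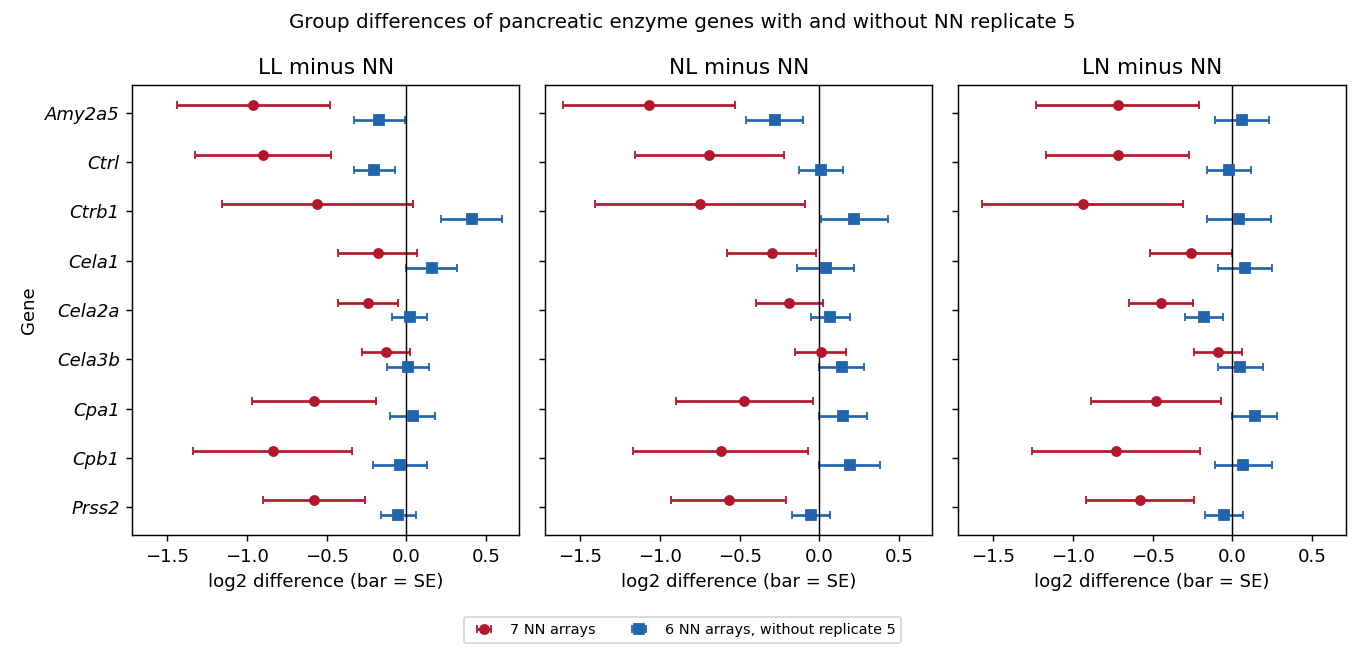
Points are log2 differences with SE bars (x axis) of 9 pancreatic enzyme genes (y axis) in LL, NL and LN against NN, with 7 NN arrays (circles) and with 6 NN arrays after leaving out replicate 5 (squares). The squares lie between -0.28 and 0.41, while the circles reach -1.07 for Amy2a5 in NL minus NN.

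The other acinar secretory genes also lay mostly below 0 against NN. Their median log2 differences were -0.17 in LL minus NN (21 of 28 below 0), -0.18 in NL minus NN (22 of 28) and -0.23 in LN minus NN (25 of 28). Without NN replicate 5 these were 0.05, 0.04 and 0.03, with 12 of 28 below 0 in each. None of the 28 passed an adjusted p under 0.05 in limma with or without that array. At an unadjusted p under 0.05, with that array, 1 was higher and 3 lower in LL minus NN, 0 in NL minus NN, and 1 higher and 1 lower in LN minus NN. Over all probe sets the shares at that limit were 8.43%, 14.1% and 11.6%, in the same order.

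The lower values were found in males, the sex NN replicate 5 is labelled with. The median of the 9 genes was -1.21 in LL minus NN males, -1.04 in NL minus NN males and -1.02 in LN minus NN males, and 9 of 9 genes were below 0 in each. In females the medians were 0.07, 0.05 and -0.01. Left out, NN replicate 5 took the male medians to -0.04, 0.08 and 0.12. The difference between the sexes in these comparisons, tested as an interaction in limma, was called for 0 of 9 genes, against 0% of all probe sets in each of the 3, with adjusted p under 0.05. Within each sex 0 of 9 genes were called, against 0% of all probe sets in each comparison but LN minus NN in males, where it was 0.036%. At an unadjusted p under 0.05 the interaction had 2 of 9 genes in LL minus NN, 1 in NL minus NN and 0 in LN minus NN, all more negative in males, against 6.49%, 4.98% and 7.1% of all probe sets. Without NN replicate 5 the interaction in LL minus NN was still negative for Cela3b (-0.62, SE 0.24). For Amy2a5 it turned positive (0.71, SE 0.31). Their adjusted p in limma was 0.632 and 0.648. The interaction too uses NN arrays that chose the genes.

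The 3 comparisons outside NN set against each other arrays that did not choose the genes, and were tested, with the spread estimated from all 4 groups, NN included. In LL minus LN the 9 genes differed by -0.23 (Amy2a5, SE 0.48) to 0.37 (Ctrb1, SE 0.60), and the lowest adjusted p in limma was 0.894. In NL minus LN they differed by -0.35 (Amy2a5, SE 0.54) to 0.26 (Cela2a, SE 0.21), with a lowest adjusted p of 0.849. In NL minus LL they differed by -0.19 (Ctrb1, SE 0.62) to 0.23 (Cpb1, SE 0.52), with a lowest adjusted p of 0.886. None of the 9 genes was called in these comparisons (0% of all probe sets in each), and 0 of 9 had an unadjusted p under 0.05, against 6.74%, 6.89% and 7.56% of all probe sets. The SEs and p-values carry the spread of NN replicate 5, which shares the fit. Without that array the same differences had 1 gene at an unadjusted p under 0.05 in LL minus LN, 1 in NL minus LN and 0 in NL minus LL, against 6.53%, 6.85% and 7.48% of all probe sets in that fit, with lowest adjusted p of 0.76, 0.707 and 0.746. The genes under that unadjusted limit were Ctrb1 in LL minus LN (0.37, SE 0.18) and Cela2a in NL minus LN (0.26, SE 0.12). The median differences over the 9 genes were -0.04, 0.03 and 0.05, against 0.00 over all probe sets.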

How the data were processed

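Liver RNA was hybridised to Clariom S mouse arrays, 1 colour, 30 arrays of 16-week offspring. The authors' deposited values are log2 signals per probe set, made with Partek software by a normalization that no source used here names. Of 29129 probe sets, 22206 were tested after removal of 6923 controls, 19572 of them with 1 gene symbol, 2634 with none. Arrays were grouped by their titles and NL replicate 6 was excluded, leaving 29. An array carried the set when 8 or more enzyme genes, of 10 listed and 9 measured, were over 1 log2 unit above their median. Group differences were fitted with limma 3.58.1 (R 4.3.3; lmFit and eBayes, 1 fit of 4 groups, a second of 8 diet-by-sex groups), two-sided, with Benjamini-Hochberg adjustment over all probe sets. The script was tested on simulated data. Named genes were the enzyme genes, the 15 most correlated with their mean, and up to 4 per list. Members and gene lists were chosen with earlier results of these data known. Arrays have no read depth, so the number of arrays limits precision. Alternatives changed the normalization, filter, covariates, weights, test, threshold and arrays used.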

Additional observations from a re-analysis of the deposited data

Results flagged for a closer look

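In 36 gene-by-group sets of values, 11 had 1 array whose distance to its nearest neighbour took up an unusually large part of the group's range. Chance alone marks about 1 in 20 such sets, a rate that does not apply to NN, whose spread chose the genes. NN replicate 5 gave 8 of the 11, as the highest NN array for Amy2a5 (10.95), Ctrl (10.05), Ctrb1 (11.15), Cela1 (7.62), Cela2a (6.97), Cpa1 (9.64), Cpb1 (9.06) and Prss2 (8.64), with gaps of 0.77 to 0.88 of the range. LL arrays gave the other 3. Ctrb1 was highest on LL replicate 2 (6.13), Cpb1 was highest on LL replicate 4 (4.21) and Prss2 was lowest on LL replicate 5 (4.31).

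NL replicate 6, which entered no comparison, had 6 of 9 enzyme genes more than 1 log2 unit above their median, as did 28% of all probe sets on that array. This was not particular to the enzyme genes. Other lists on that array ran from 0 of 10 hepatocyte genes to 7 of 8 muscle genes, with 7 of 9 stomach and 8 of 16 islet genes. On NL replicate 6 the Amy2a5 signal was 5.13 and the Cpb1 signal 3.64, close to the NL medians of 5.26 and 3.65 over the 6 arrays used.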

How the results depend on the processing

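None of the 9 enzyme genes was called in any of the 15 comparisons under the 39 other settings, as far as each gave a value. The fit without LL replicate 1 is counted both as a setting of its own and among the arrays left out 1 at a time. Removal of dim probe sets dropped Ctrb1 and Cpb1, and sex as a covariate was fitted for the 6 comparisons over both sexes. The differences of the enzyme genes moved by more than 1 within-group SD in 50 of 5154 recomputed values. Of these, 48 were without NN replicate 5 and the other 2 (Cela3b, in NL minus NN in males and in its interaction with sex) with all 30 arrays. That SD includes NN replicate 5 and is wide for these genes, so smaller moves on leaving that array out were not counted. Amy2a5 in LL minus NN, for example, went from -0.96 to -0.17 without NN replicate 5 and was not counted as moved. Of the arrays scored, NN replicate 5 alone carried the set under 6 of the other rules. For the rule of 6 or more genes NL replicate 6, which had 6 of 9, was not among the arrays scored. In contrast, 0 arrays carried the set when 2 log2 units were asked (7 genes on NN replicate 5) or when all measured genes were asked (8).

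Counts of probe sets called in limma over all genes were less stable. NL minus NN had 12, and 3 with all 30 arrays, 28 with arrays centred on their median (3 higher and 25 lower, against 3 and 9), 43 without dim probe sets, 65 with sex as a covariate, 1 with only the groups compared, 26 with array weights, 31 by the methods' analysis of variance and 1 at an adjusted p under 0.01. LN minus NN had 9, and 0 with all 30 arrays, 4 centred (2 higher and 2 lower, against 7 and 2), 0 with only the groups compared, 5 by the analysis of variance and 0 at 0.01. LN minus NN in males had 8, and 0 with all 30 arrays, 1 also without LL replicate 1, 1 after quantile normalization, 26 centred, 16 without dim probe sets, 3 with only the groups compared, 27 with weights, 5 by the analysis of variance and 0 at 0.01. LL minus NN had 0, and 2 also without LL replicate 1, and in females 0, with 3 without LL replicate 1 and 1 by the analysis of variance. The cause was not tested.

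Leaving out 1 array at a time gave 0 to 2 in LL minus NN, 1 to 62 in NL minus NN (1 without NN replicate 5, NL replicate 2 or NL replicate 4, and 62 without NN replicate 7), 1 to 11 in LN minus NN, 0 in LL minus LN and NL minus LN, and 0 to 1 in NL minus LL. In females it gave 0 to 3 (LL), 0 (NL) and 0 to 1 (LN) against NN, and in males 0 to 1, 0 to 58 and 0 to 14. The interactions gave 0, 0 to 5 and 0 to 6.

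Replicate numbers did not pair the arrays. Over 39 same-number pairs, deviations from group means correlated at -0.212 to 0.188 (mean -0.00179). With the replicate number as a block, NL minus NN had 2, LN minus NN 2 and LN minus NN in males 0.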

Other observations

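Another tissue's genes were raised on other arrays. All 8 listed skeletal muscle genes were more than 1 log2 unit above their median on NN replicate 3 (list median 4.08), 5 of 8 on LL replicate 2 (1.77) and 4 of 8 on LN replicate 1 (1.18). Acta1, the skeletal muscle actin, was at 9.46 on LL replicate 2, 7.92 on LN replicate 1 and 11.02 on NN replicate 3, against 4.35 on NN replicate 5, and its group medians were 4.55 in LL, 4.38 in NL, 4.83 in LN and 4.54 in NN livers. Myh2, a muscle myosin, followed the same arrays at 9.17, 7.41 and 10.41. None of the 8 was more than 1 unit above its median on NN replicate 5. LL replicate 2 was also the array with Ctrb1 at 6.13 and with Reg1 at 4.55, the highest LL values of these acinar genes.

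Dmbt1, a secreted scavenger receptor of mucosal epithelia, was at 10.83 on LL replicate 9 and 9.85 on LL replicate 2, and at 7.11 on NN replicate 5. Its medians were 4.16 in LL, 4.27 in NL, 4.16 in LN and 4.15 in NN livers. Muc1, an epithelial mucin of the duct list, was at 7.50 and 8.11 on the same LL arrays, against medians of 5.18 in LL and 4.94 in NN livers. Dmbt1, Muc1 and the muscle genes were picked out after their values were seen, and no cause was tested.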
